A study of Mus musculus with 12 samples.

Results

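The cyclin-dependent kinase (CDK) inhibitors are 7 genes whose products bind CDKs or their cyclin complexes and slow or stop the cell cycle: Cdkn1a, Cdkn1b, Cdkn1c, Cdkn2a, Cdkn2b, Cdkn2c and Cdkn2d. They were described in mouse embryonic fibroblasts (MEFs) that were induced toward a cardiac phenotype. The platform annotation maps 9 of the 22626 probe sets tested to these 7 symbols, with 2 probe sets for Cdkn1a, 2 for Cdkn1b and 1 for each of the others, and these 9 probe sets are the whole set described here. The MEFs were of the C57BL/6 strain. They first received a lentivirus for M2rtTA, the doxycycline-dependent transactivator, and were then divided into the 4 groups. TF group 1 was then transduced with inducible lentiviruses for GATA4, TBX5 and MEF2C, 3 transcription factors. TF group 2 had Mesp1 and SMARCD3 as well, 5 factors in all, and in TF group 3 MYOCD and SRF brought the number to 7. The negative control carried M2rtTA alone, so it had the transactivator but no factor virus. The factors were human cDNAs except for mouse Mesp1. Total RNA was isolated 7 days after the start of induction. The methods give a medium with added serum, doxycycline and valproic acid, a histone deacetylase inhibitor, without naming another one for the negative control. Each group had 3 arrays, which the labels call biological replicates. The methods do not say whether the replicates of a group were transduced separately. RNA came from the whole culture, so the share of cells that expressed all factors of a group is not known, and fewer cells of a type cannot be told apart from less RNA per cell.

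The inhibitors fall into 2 families. Products of the Cip/Kip family (p21 from Cdkn1a, p27 from Cdkn1b, p57 from Cdkn1c) bind cyclin and CDK together, whereas products of the INK4 family (p16Ink4a from Cdkn2a, p15Ink4b from Cdkn2b, p18Ink4c from Cdkn2c, p19Ink4d from Cdkn2d) bind CDK4 and CDK6 and keep the D-type cyclins from activating them. Cdkn2a also encodes p19Arf from an alternative first exon, a protein that stabilises p53 through Mdm2. In cultured MEFs, p19Arf, p16Ink4a and p15Ink4b are known to accumulate with passage, Cdkn1a is a classical p53 target, p27 is controlled largely through its degradation, and Cdkn1c is an imprinted gene expressed from the maternal allele.

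The genes that rose in all TF groups are Cdkn1a, Cdkn2a and Cdkn2b, and the 250 bases before their transcript starts are shown because these members rose together. The windows were taken from RefSeq on build GRCm38.p6, 5′ to 3′ on the strand of the gene, and capitals mark the motif matches named after them.
Cdkn1a, upstream start, chr17:29090729-29090978, plus strand: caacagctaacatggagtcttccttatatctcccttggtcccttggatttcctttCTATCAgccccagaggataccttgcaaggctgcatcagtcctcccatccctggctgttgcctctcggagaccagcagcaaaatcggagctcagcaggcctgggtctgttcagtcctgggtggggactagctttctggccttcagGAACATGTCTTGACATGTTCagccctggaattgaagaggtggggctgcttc
Cdkn1a, downstream start, chr17:29093519-29093768, plus strand: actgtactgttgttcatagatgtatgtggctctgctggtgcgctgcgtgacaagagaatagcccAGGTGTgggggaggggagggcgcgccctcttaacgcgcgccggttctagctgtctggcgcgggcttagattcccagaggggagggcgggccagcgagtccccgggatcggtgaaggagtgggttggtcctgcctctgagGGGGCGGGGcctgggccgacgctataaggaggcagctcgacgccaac
Cdkn2a, upstream start, chr4:89294620-89294869, minus strand: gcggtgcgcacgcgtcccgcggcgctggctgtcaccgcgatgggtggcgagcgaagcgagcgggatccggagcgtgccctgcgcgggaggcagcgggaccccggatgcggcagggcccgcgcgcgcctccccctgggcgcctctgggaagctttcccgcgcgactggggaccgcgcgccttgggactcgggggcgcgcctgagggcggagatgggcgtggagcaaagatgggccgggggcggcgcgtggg
Cdkn2a, downstream start, chr4:89282193-89282442, minus strand: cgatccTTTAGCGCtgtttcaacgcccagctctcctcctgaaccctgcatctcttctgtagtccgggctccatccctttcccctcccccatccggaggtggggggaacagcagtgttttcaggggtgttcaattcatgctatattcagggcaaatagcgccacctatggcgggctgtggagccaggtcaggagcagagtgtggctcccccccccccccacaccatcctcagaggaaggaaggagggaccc
Cdkn2b, chr4:89311033-89311282, minus strand: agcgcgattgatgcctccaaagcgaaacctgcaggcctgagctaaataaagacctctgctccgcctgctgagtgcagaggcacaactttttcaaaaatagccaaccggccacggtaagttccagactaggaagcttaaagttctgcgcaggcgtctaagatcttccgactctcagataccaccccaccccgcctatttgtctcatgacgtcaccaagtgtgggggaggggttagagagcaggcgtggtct
The windows were searched for motifs on both strands. The p53 element was a pair of adjacent decamers with at most 1 mismatch, none in the core of either. GATA was those 4 letters after an adenine or thymine and before an adenine or guanine. The others were E2F (TTTNGCGC), T-box (AGGTGT), MEF2 (YTAWWWWTAR), CArG (CCWWWWWWGG) and Sp1 (GGGGCGGGG). In these letters N is any base, Y is C or T, R is A or G and W is A or T. Among 32851 promoter windows of the same length, 0.0457% held the p53 element, 1.13% E2F, 26.5% GATA, 11.8% T-box, 2.92% MEF2, 1.47% CArG and 10.4% Sp1. The upstream start of Cdkn1a held the p53 element at -51 to -32 from the start and a GATA match on the opposite strand. Its downstream start held a T-box match and an Sp1 match. Of the Cdkn2a starts, the upstream one had 78.4% G and C bases, 40 CpG dinucleotides and no match to the letters searched. The downstream one held an E2F match at -244. For E2F only TTTNGCGC was searched, so a window without a match may still hold another form of the site. No searched motif was in the Cdkn2b window. RefSeq gave windows for 6 of the 7 members, and among those not printed the Cdkn1b window held MEF2 and T-box matches while the windows of Cdkn2c and Cdkn2d held none. A match here is a string of letters, and binding was not measured.

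Values are the deposited linear signals, in arbitrary units, of a 3′ expression array, and all fold changes were fitted on their log2 scale. The word called is used of a probe set whose fold change exceeded 1.5 and whose adjusted p (limma, Benjamini-Hochberg over all 22626 probe sets) was under 0.05. The 12 arrays had a trimmed mean signal of 500 each and median signals of 131.5 to 149.7. Fibroblast markers (11 of 11 measured, each above a signal of 32 in every group) summed to signals of 82797 to 89292 in TF group 1, 66194 to 69153 in TF group 2, 64507 to 66556 in TF group 3 and 72042 to 75765 in the negative control, so that TF group 1 lay above the negative control and TF groups 2 and 3 below it. The summed signal of macrophage markers (8 measured) was lower in TF group 1 alone, at 392 to 450, with 553 to 572 in TF groups 2 and 3 and 517 to 615 in the negative control. By gene, 1 of the 8 was called lower and 0 higher in each TF group. The 7 epithelial markers summed to 880 to 1149 on TF arrays, above the 637 to 756 of the negative control, and the 8 skeletal muscle markers to 923 to 1650, below its 1699 to 1891. Such sums weigh the brightest genes most. By gene, 2 of the 8 skeletal muscle markers were called higher and 1 lower in each TF group (median log2 changes 0.40, 0.17 and 0.32). Endothelial markers (7 measured) overlapped, at 126 to 216 on TF arrays and in the negative control. By group mean, 4, 4, 5 and 5 of these 7 lay below a signal of 32 in TF groups 1, 2, 3 and the negative control. In the same order, 3, 3, 2 and 2 macrophage, 1, 1, 1 and 2 epithelial and 3, 2, 3 and 2 skeletal muscle markers did. The part of these marker levels in the results was not tested. The spikes of polyadenylated RNA, added in the preparation, had log2 signals of 8.03 to 8.28 on TF arrays, against 6.99 to 7.79 in the negative control, a difference in means of 0.81. Their part in the results was not tested, and values scaled to these spikes are given beside the members and gene lists.

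The 7 genes split into a group that rose in every TF group (Cdkn1a, Cdkn2a and Cdkn2b), a group that was called lower in at least 1 of them (Cdkn1c, Cdkn2c and Cdkn2d), and Cdkn1b, which had no call. Of the 9 probe sets, 4 were called higher in each of TF groups 1, 2 and 3 versus the negative control. Among all probe sets tested, the shares called higher were 13.6%, 13.7% and 13.6%. Called lower were 1 of the 9 (TF group 1), 3 (TF group 2) and 2 (TF group 3), beside 9.06%, 9.98% and 9.36% of all probe sets. The 3 comparisons share the negative control arrays. Over the 4 groups, 8 of the 9 probe sets differed by the F test (adjusted p under 0.05), as did 45.4% of all probe sets.

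**Figure D1:**
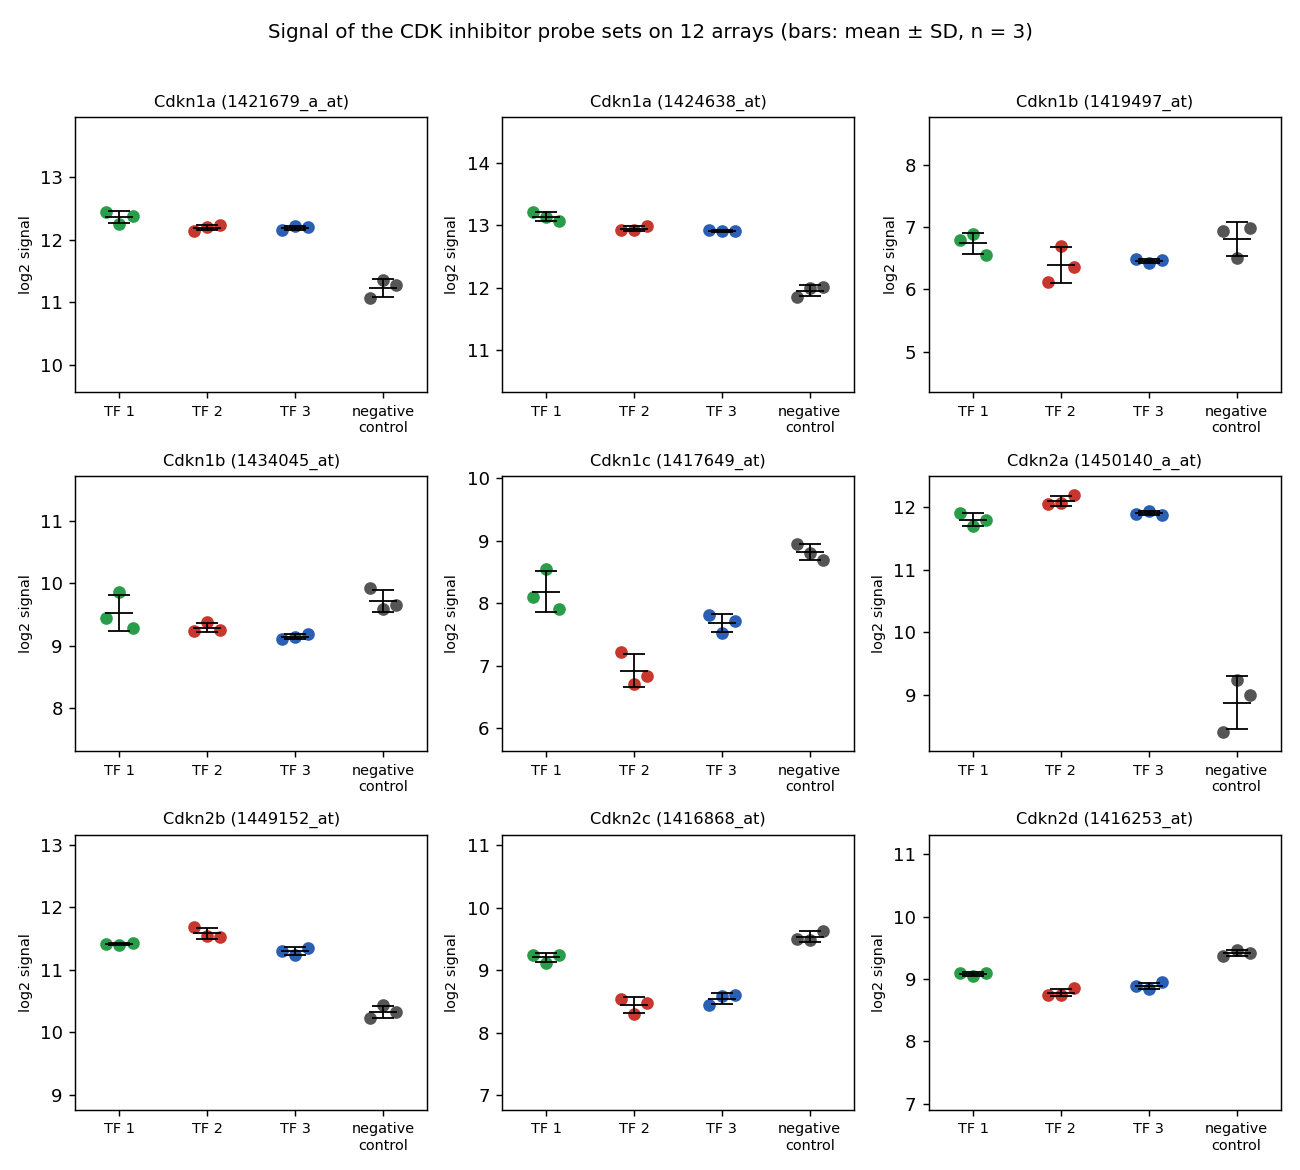
Log2 signal (vertical axis, each panel spanning the same range) of the 9 CDK inhibitor probe sets on the 12 arrays. Points are arrays of TF groups 1, 2 and 3 and the negative control, bars are mean ± SD (n = 3). The TF arrays lie above the negative control for Cdkn1a, Cdkn2a and Cdkn2b and below it for Cdkn1c, Cdkn2c and Cdkn2d.

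Cdkn2a had the largest fold change of the members. Its probe set (1450140_a_at) had signals of 3852, 3335 and 3539 in TF group 1, 4244, 4298 and 4701 in TF group 2, 3808, 3919.6 and 3772 in TF group 3, against 337, 602 and 508 in the negative control. All 9 TF arrays lay far above the 3 negative control arrays, which themselves spread more (SD 0.43 on the log2 scale) than the arrays of any TF group (SD 0.03 to 0.10). The log2 changes in TF groups 1, 2 and 3 were 2.93, 3.23 and 3.03 (SE 0.18), that is 7.61-fold, 9.40-fold and 8.17-fold, with adjusted p = 1.6e-06, 6.55e-07 and 1.14e-06. In these comparisons the probe set ranked 110th, 115th and 144th from the highest of 22626 log2 changes. The name of the probe set marks it as one that detects several transcripts of the gene, so p16Ink4a and p19Arf mRNA cannot be told apart. Scaled to the poly-A spikes the log2 changes were 2.03, 2.50 and 2.24, all called.

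Cdkn2b, the neighbour of Cdkn2a on chromosome 4, had signals of 2733, 2691 and 2739.5 in TF group 1, 3279.9, 2985 and 2937 in TF group 2, 2513, 2407 and 2618 in TF group 3, against 1203, 1378 and 1279 in the negative control. The groups with and without factors did not overlap. It rose by 1.08, 1.25 and 0.97 on the log2 scale in TF groups 1, 2 and 3 (SE 0.07), with adjusted p = 2.34e-06, 7.28e-07 and 4.11e-06. TF group 3 was 0.29 below TF group 2 (95% interval -0.44 to -0.13, adjusted p = 0.0351), under the 1.5-fold threshold.

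Cdkn1a was measured by 2 probe sets that moved together (r = 0.993 over 12 arrays). The probe set 1424638_at had signals of 9442, 8941 and 8600.3 in TF group 1, 7722, 7775 and 8134 in TF group 2, 7792, 7628 and 7651 in TF group 3, against 3672, 4078 and 4109.6 in the negative control. The probe set 1421679_a_at had 5577, 4882 and 5308 in TF group 1, 4529, 4740.5 and 4796 in TF group 2, 4571, 4756 and 4696 in TF group 3, against 2151, 2607 and 2480.3 in the negative control. For both, every TF array lay above every negative control array. The log2 change of 1424638_at was 1.19, 1.00 and 0.96 in TF groups 1, 2 and 3 (SE 0.06), that is 2.28-fold, 1.99-fold and 1.95-fold, with adjusted p = 7.69e-07, 1.66e-06 and 2.23e-06. The other probe set gave 1.13, 0.96 and 0.96 (SE 0.08).

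With the arrays scaled to the poly-A spikes, neither Cdkn1a nor Cdkn2b was called. The log2 changes of Cdkn1a (1424638_at) became 0.29, 0.26 and 0.17, and those of Cdkn2b 0.18, 0.52 and 0.17. The same scaling moved the median of all probe sets, which was 0.06, 0.05 and 0.05 as deposited, to -0.84, -0.69 and -0.74 (by construction it shifts all probe sets of an array alike). It left 4.3%, 7.58% and 6.19% of the calls over all probe sets on the higher side in TF groups 1, 2 and 3, against 60.1%, 57.9% and 59.2% as deposited. With each array centred on its median these shares were 45.7%, 47.6% and 46.7%, and the calls of Cdkn1a, Cdkn2a and Cdkn2b held.

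**Figure D2:**
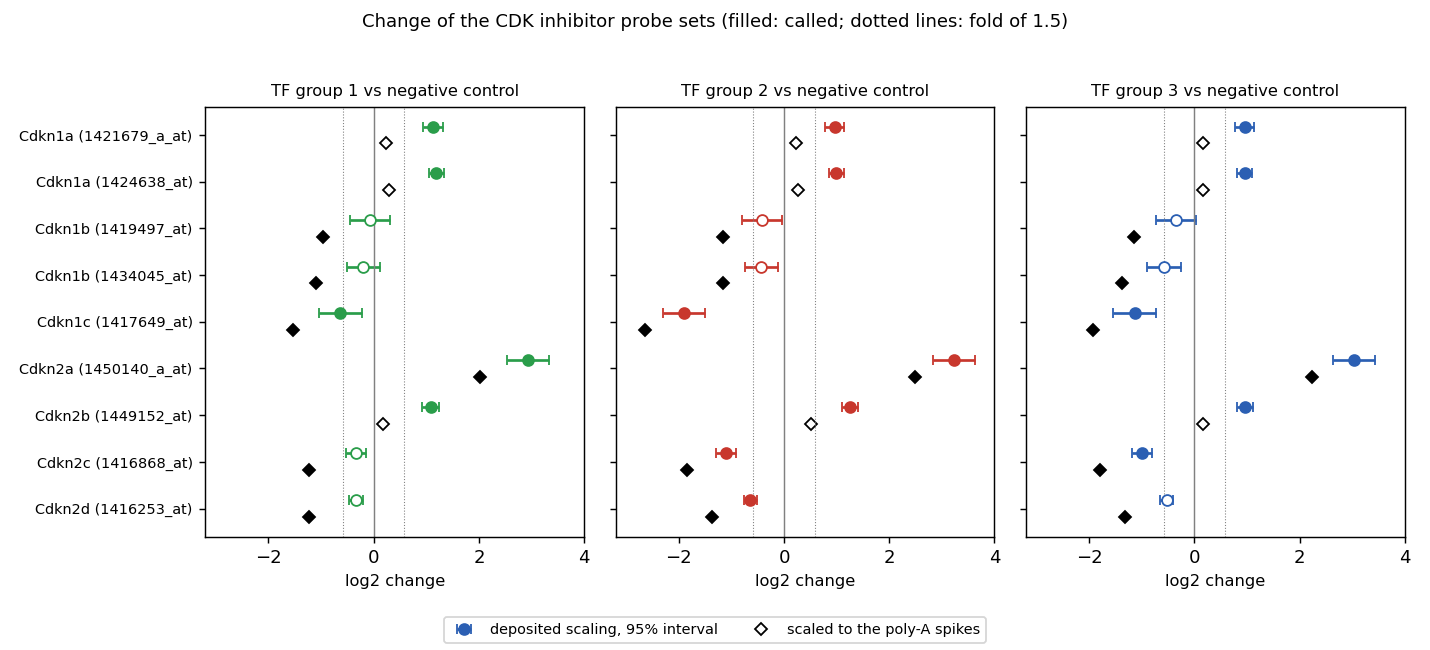
Log2 change of the 9 CDK inhibitor probe sets in TF groups 1, 2 and 3 versus the negative control (horizontal axis). Circles are the deposited scaling with 95% intervals (3 arrays a group), diamonds the same arrays scaled to the poly-A spikes, filled where called, and dotted lines mark a fold of 1.5. Cdkn2a is filled at 2.93, 3.23 and 3.03 and stays filled under the spike scaling, whereas Cdkn1a and Cdkn2b do not.

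Cdkn1c, the imprinted member that encodes p57, fell in all 3 TF groups and by different amounts. Its signals were 275, 374 and 240.3 in TF group 1, 148, 105 and 114 in TF group 2, 224, 184 and 209 in TF group 3, against 496, 446 and 415 in the negative control. No TF array reached the lowest negative control array, and the 3 arrays of TF group 2 were the lowest of all 12. The log2 changes in TF groups 1, 2 and 3 were -0.63, -1.90 and -1.14 (SE 0.18), with adjusted p = 0.0197, 2.39e-05 and 0.000732. The call in TF group 1 was lost without negative control replicate 1 (log2 change -0.56), without TF group 1 replicate 1 (-0.59) and without TF group 1 replicate 3 (-0.49).

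Cdkn2c, which encodes p18Ink4c, had signals of 608, 556 and 608 in TF group 1, 372, 314 and 356 in TF group 2, 349, 384 and 388 in TF group 3, against 723, 713 and 793 in the negative control. TF groups 2 and 3 lay at about the same level, with TF group 1 between them and the negative control, and none of these 3 levels overlapped. It fell by 1.10 in TF group 2 and by 0.99 in TF group 3 on the log2 scale (SE 0.08, adjusted p = 5.56e-06 and 1.16e-05). The log2 change in TF group 1 was -0.33 (adjusted p = 0.0106), less than the 1.5-fold threshold.

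Cdkn2d, which encodes p19Ink4d, had signals of 549, 531 and 549 in TF group 1, 429, 430.3 and 462 in TF group 2, 471, 459 and 494 in TF group 3, against 662, 709 and 683 in the negative control. Its 4 groups were tight, with SDs of 0.03 to 0.06 on the log2 scale. It was called lower in TF group 2 (log2 change -0.64, SE 0.06, adjusted p = 1.57e-05), a call lost with an offset of 50 added before the log2 step (-0.58) and at a fold of 2. TF group 1 at -0.33 and TF group 3 at -0.53 passed the test (adjusted p = 0.00112 and 5.85e-05) but not the fold threshold, and TF group 3 passed both with the arrays centred on their medians (-0.64).

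Cdkn1b, which encodes p27, had no call at either probe set. The brighter probe set, 1434045_at, had signals of 692, 923 and 623 in TF group 1, 602, 666 and 610.0 in TF group 2, 549.6, 564 and 580.2 in TF group 3, against 969, 769 and 801 in the negative control. TF group 1 overlapped the negative control and TF groups 2 and 3 lay below it. Its log2 change was -0.20 in TF group 1 (95% interval -0.51 to 0.12), -0.43 in TF group 2 (adjusted p = 0.0365) and -0.58 in TF group 3 (adjusted p = 0.00917), and the last of these, at 1.49-fold, sat just under the threshold. It was called in TF group 3 with the arrays centred on their medians (-0.69), with quantile normalization (-0.60), and without negative control replicate 2 (-0.64), negative control replicate 3 (-0.61) or TF group 3 replicate 3 (-0.60). The probe set 1419497_at had 110.4, 118 and 94.1 in TF group 1, 69.9, 104 and 82.2 in TF group 2, 89.9, 85.7 and 88.5 in TF group 3, against 123, 90.8 and 127 in the negative control, with log2 changes of -0.07, -0.41 and -0.35 (SE 0.17), and was the member that did not pass the F test (adjusted p = 0.154). With that scaling to the poly-A spikes, 5 of the 9 probe sets were called lower in each TF group: both of Cdkn1b (-0.96 to -1.37) and those of Cdkn1c, Cdkn2c and Cdkn2d (-1.23 to -2.64). Of all 22626 probe sets, that scaling called 12331, 9996 and 10731 lower in TF groups 1, 2 and 3, so such calls were not particular to the members.

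Differences in log2 signal between members within an array do not depend on a factor by which the whole array is multiplied. Quantile normalization or an offset can change them. The log2 signal of Cdkn2a over that of Cdkn1a was higher than in the negative control by 1.74 ± 0.08, 2.24 ± 0.04 and 2.07 ± 0.04 in TF groups 1, 2 and 3 (SD, n = 3), while the negative control arrays ranged from -0.37 to 0.31 about their mean. That of Cdkn2a over Cdkn2b was higher by 1.84, 1.98 and 2.06. The change of Cdkn2a was therefore unequal to that of its neighbour and of Cdkn1a on every TF array. Cdkn1a over Cdkn1c was higher by 1.82, 2.90 and 2.10, and Cdkn2b over Cdkn2c by 1.41, 2.35 and 1.96. These pairs were chosen after the values were seen and have no test.

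**Figure D3:**
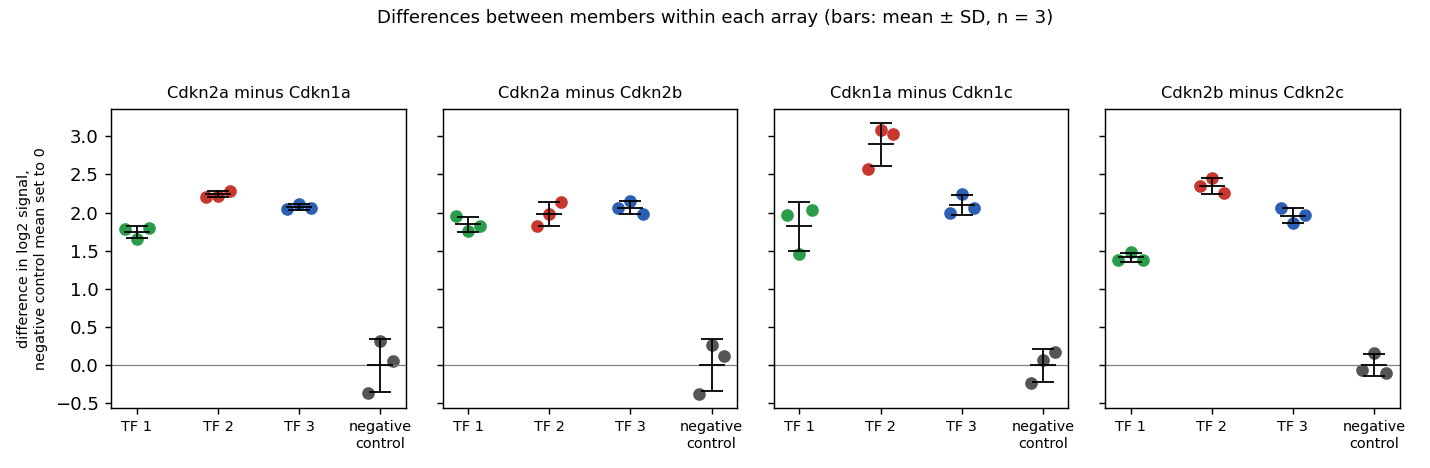
Difference in log2 signal between pairs of members on each array (vertical axis), with the mean of the negative control set to 0. Points are arrays of TF groups 1, 2 and 3 and the negative control, bars are mean ± SD (n = 3). On all 9 TF arrays Cdkn2a stood higher relative to Cdkn1a (from 1.65) than on any negative control array (up to 0.31).

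The factor sets were next compared with each other. Between TF group 2 and TF group 1, 0 of the 9 probe sets were called higher and 2 lower, with 1.7% and 1.57% of all probe sets called in those directions. Cdkn1c was 1.27 lower in TF group 2 (log2, adjusted p = 0.00308, 2.41-fold) and Cdkn2c 0.77 lower (adjusted p = 0.000716, 1.70-fold). Cdkn2d was 0.30 lower (adjusted p = 0.0124), under the fold threshold. Between TF group 3 and TF group 2, 1 probe set was called higher and 0 lower (2.18% and 1.39% of all probe sets). This was Cdkn1c, 0.76 higher in TF group 3 (adjusted p = 0.0318), a call that was lost without any of TF group 2 replicate 2 (0.66), TF group 2 replicate 3 (0.72), TF group 3 replicate 1 (0.70), TF group 3 replicate 2 (0.84) or TF group 3 replicate 3 (0.75). Between TF group 3 and TF group 1, 0 were called higher and 1 lower (3.04% and 2.62% of all probe sets), and this was Cdkn2c at -0.66 (adjusted p = 0.000887). Scaled to the poly-A spikes, the call of Cdkn1c between TF groups 2 and 1 remained (-1.11), whereas those of Cdkn2c between the same groups (-0.61), of Cdkn1c between TF groups 3 and 2 (0.71) and of Cdkn2c between TF groups 3 and 1 (-0.56) did not. None of the 3 genes that rose was called between TF groups. Cdkn2a was highest in TF group 2, but its intervals against TF group 1 (-0.09 to 0.70) and TF group 3 (-0.60 to 0.20, TF group 3 minus TF group 2) included 0. Cdkn1a was highest in TF group 1, and at 1424638_at the log2 difference between TF groups 3 and 1 was -0.22 (adjusted p = 0.0454), a difference under the fold threshold.

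Products of the CDK inhibitors act on CDKs and cyclins, and these were lower in part. In TF groups 1, 2 and 3, 0, 1 and 0 of the 11 genes measured were called higher and 6, 6 and 7 called lower (median log2 changes -0.72, -0.92 and -0.93, against 0.06, 0.05 and 0.05 over all probe sets). The genes that fell most had log2 changes of -2.87, -3.06 and -2.81 for Ccna2, the S-phase and mitotic cyclin, -2.95, -3.19 and -2.58 for Ccne2, the cyclin of entry into S phase, -2.54, -3.10 and -3.02 for Ccnb2, a mitotic cyclin, and -2.40, -2.72 and -2.54 for Cdk1, the mitotic kinase. Cdk6, a kinase bound by the INK4 proteins, was called higher in TF group 2 (0.77). The D-type cyclins Ccnd1, Ccnd2 and Ccnd3 had no call at their brightest probe sets, with log2 changes between 0.17 and 0.53, but Ccnd1 had 3 probe sets and Ccnd2 7. With the mean of all probe sets of a gene, 1, 2 and 0 of the 11 genes were called higher and 7 lower in each TF group. With the arrays scaled to the poly-A spikes 8, 7 and 8 of the 11 were called lower and 0 higher. Beside this count, and the spike-scaled counts of the lists below, stand 12331, 9996 and 10731 of all 22626 probe sets called lower. As deposited, here and for the lists below, 13.6%, 13.7% and 13.6% of all probe sets were called higher and 9.06%, 9.98% and 9.36% lower.

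The pocket proteins and E2F factors stand downstream of these kinases. Of 10 measured, 2, 2 and 2 were called higher and 4, 5 and 5 lower (medians -0.47, -0.43 and -0.35). The pocket protein genes Rb1 (log2 changes from 0.92 to 1.61) and Rbl2 (1.28, 1.06 and 1.08), whose products hold E2F factors in check, rose in all 3 TF groups. Rbl1, itself an E2F target, fell (-1.08, -1.28 and -1.30), and so did E2f8 (-2.10, -2.52 and -2.44). The spike scaling gave 8 of the 10 called lower in each TF group and 0, 1 and 1 higher. Among 9 genes of p27 turnover and FOXO factors, 1 was called higher and 4 lower in each TF group. Skp2, the ubiquitin ligase subunit that recognises p27, fell (-1.76, -1.72 and -1.49), as did its cofactor Cks1b (-1.11, -1.36 and -1.28). After the spike scaling 0 were called higher and 6 lower in each TF group. Foxo3, an activator of Cdkn1b transcription, rose by 1.03, 0.74 and 0.68, a call lost with the spike scaling (0.14, 0.01 and -0.12).

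The genes known to control the Ink4 locus were mostly not called. Of 15 polycomb genes and other repressors, 1, 0 and 0 were called higher and 3, 4 and 4 lower (medians -0.03, -0.26 and -0.31). Beside these counts and those of the activators stand 13.6%, 13.7% and 13.6% of all probe sets called higher and 9.06%, 9.98% and 9.36% lower. Ezh2, the methyltransferase of polycomb complex PRC2, fell (-1.78, -1.63 and -1.64), as did its partner Suz12 (-0.81, -0.98 and -0.79) and Id1, which opposes ETS factors at the p16Ink4a promoter (-0.72, -1.04 and -1.12). Bmi1, the PRC1 subunit first tied to this locus, was called lower in TF group 2 (-0.62), while its log2 changes were -0.36 in TF group 1 and -0.39 in TF group 3. Of 9 activators, 1, 0 and 0 were called higher and 3, 3 and 2 lower. Ets1 (-1.13, -0.89 and -0.98) and Jun (-0.66, -0.59 and -0.60) fell, and Ets2 rose in TF group 1 (1.14). With the spike scaling 10 of the 15 repressors were called lower in each TF group and 8, 6 and 7 of the 9 activators, with 0 higher on both lists. Of 5 measured genes that flank the Ink4 genes 0 were called in either direction. Mtap, which lies beside Cdkn2a and encodes an enzyme of methionine salvage, had log2 changes of 0.15, 0.44 and 0.48, beside 2.93, 3.23 and 3.03 for Cdkn2a.

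The p53 pathway, which contains Cdkn1a as a target and p19Arf as an activator, was counted without that member. In TF groups 1, 2 and 3, 12, 12 and 11 of 18 genes measured other than Cdkn1a were called higher and 0 lower in each, and the medians were 0.75, 0.81 and 0.67. Perp rose by 2.96, 2.95 and 2.83, the death receptor gene Fas by 2.90, 2.71 and 2.64, Trp53inp1 by 2.16, 2.18 and 1.78, and the BH3-only gene Pmaip1 by 1.75, 1.76 and 1.98. Mdm2, the ligase that degrades p53, rose by 0.98, 1.16 and 0.85. Mdm4, Plk2 and Aen were among the genes of this list that had no call. With the spike scaling 4, 4 and 4 were called higher and 3, 3 and 4 lower, with medians of -0.15, 0.07 and -0.13 beside the -0.84, -0.69 and -0.74 of all probe sets.

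**Figure D4:**
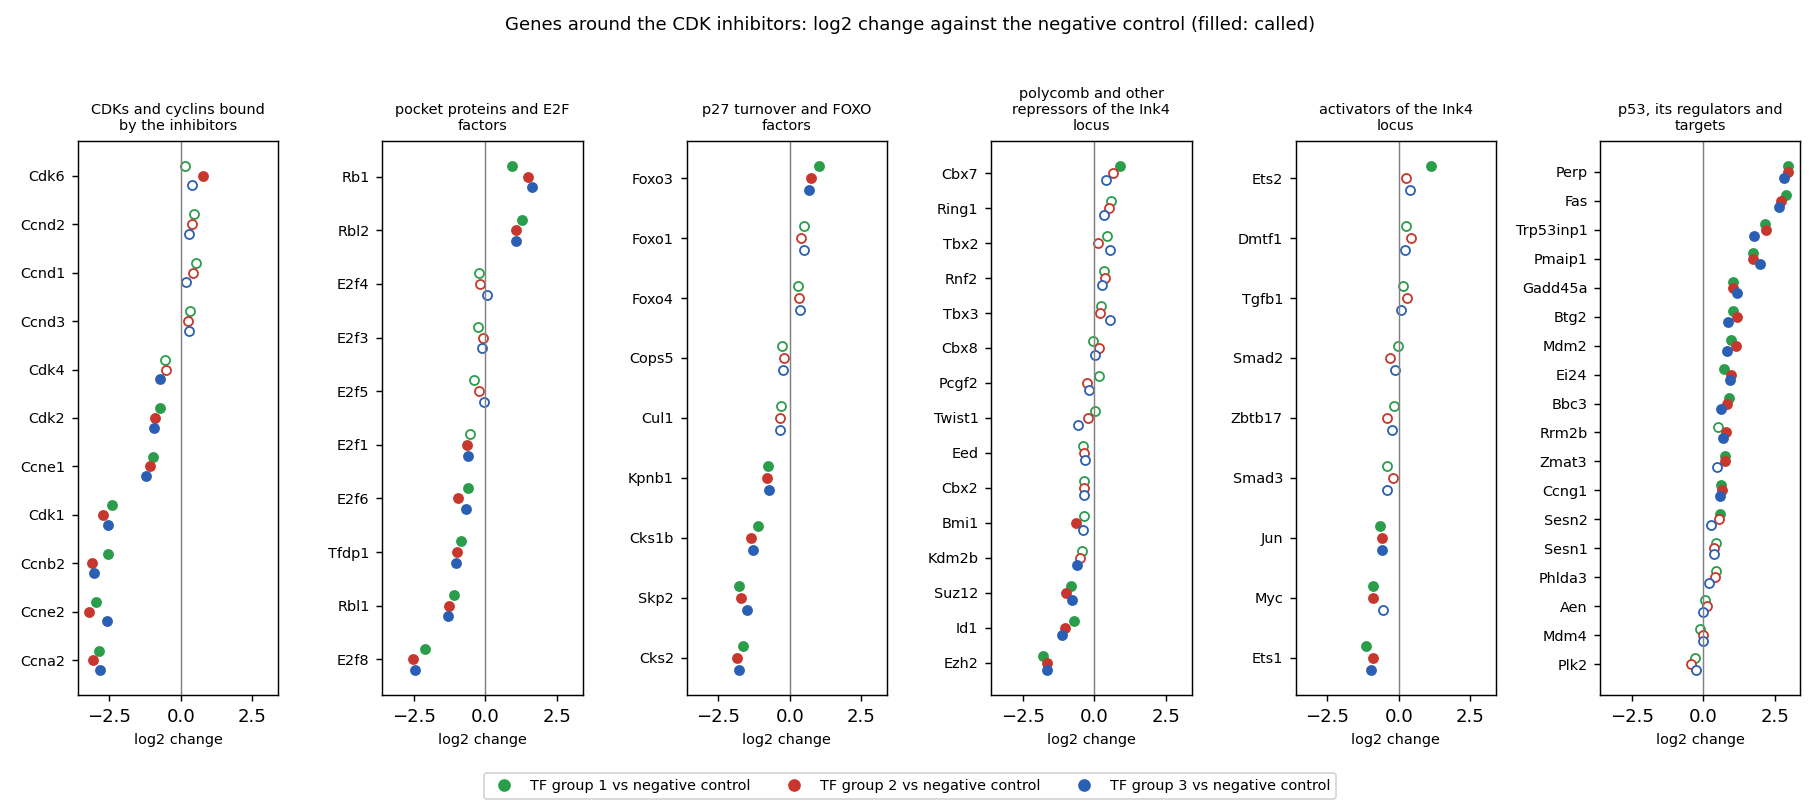
Log2 change versus the negative control (horizontal axis) of the genes of 6 lists around the CDK inhibitors, 1 row a gene. Colours are TF groups 1, 2 and 3, and filled points were called. Most called points lie right of 0 for the p53 list and left of 0 for the CDKs and cyclins.

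Markers of proliferating cells moved with these changes. None of the 9 measured was called higher and 9, 8 and 9 were called lower (TF groups 1, 2 and 3), with medians of -2.79, -3.24 and -2.81. Their summed signal was 3173 to 3928 on TF arrays, against 16798 to 17057 in the negative control. Mki67 (-3.42, -3.82 and -3.36) and Birc5 (-3.63, -4.01 and -3.84) were among those that fell. With the spike scaling 9 were called lower in each TF group. Of 10 cardiac markers 6, 5 and 8 were called higher (medians 1.12, 1.13 and 3.14), and 3, 3 and 7 with the spike scaling (medians 0.22, 0.39 and 2.34). Their summed signal was 4337 to 4710 in TF group 1, 4657 to 4811 in TF group 2 and 13558 to 14888 in TF group 3, against 655 to 720 in the negative control. Of the 10, 3, 3 and 1 lay below a signal of 32 in TF groups 1, 2 and 3, and 4 in the negative control. The part of these 2 cell states in the levels of the inhibitors was not tested.

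Cdkn1c lies in an imprinted domain beside that of Igf2, and the genes of both domains were counted. In TF groups 1, 2 and 3, 1, 0 and 1 of 10 measured, Cdkn1c among them, were called higher and 2, 2 and 3 called lower, with 5, 6 and 7 lower and 1, 0 and 0 higher after the spike scaling. That scaling called 12331, 9996 and 10731 of all 22626 probe sets lower. As deposited, 13.6%, 13.7% and 13.6% of all probe sets were called higher and 9.06%, 9.98% and 9.36% lower. Igf2, the paternally expressed growth factor gene, fell (log2 changes -2.15, -2.96 and -2.01, SE 0.17). Its mean was lowest in TF group 2, as was that of Cdkn1c. The log2 difference between TF groups 2 and 1 was -0.81 (adjusted p = 0.0238), and that between TF groups 3 and 2 was 0.95 (adjusted p = 0.0096). Phlda2, a neighbour of Cdkn1c that restrains placental growth, differed in pattern. It was called higher in TF group 1 (log2 change 2.82, adjusted p = 0.000692) and lower in TF group 3 (-1.41, adjusted p = 0.0304), with -0.99 in TF group 2 (adjusted p = 0.109), but it was dim, at mean log2 signals of 5.15, 1.34 and 0.92 in TF groups 1, 2 and 3 and 2.33 in the negative control. Cd81 was called higher in TF group 3 (0.65). Tssc4 and Nap1l4, at log2 changes of -0.32 to -0.24, were not called.

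The genes closest in pattern to each called member were found by Pearson's r of log2 signals over the 12 arrays, among 10824 probe sets with a mean log2 signal of at least 7. Arrays of a group share their treatment, so r describes mainly the differences between the means of the 4 groups and carries no test. A high r need not mean the same order of the TF groups. Nearest to Cdkn2a were Pigs (r = 0.994), Cops9 (0.994) and Hexa (0.994), a lysosomal hexosaminidase subunit, and the most opposite were Srsf2 (-0.996), Ect2 (-0.994) and Dnmt1 (-0.994), the maintenance DNA methyltransferase. For Cdkn2b they were F11r (0.993), Scarb2 (0.991) and Blcap (0.991), with the replication helicase gene Mcm6 (-0.993), Tcof1 (-0.991) and the splicing factor gene Srsf1 (-0.991) opposite. Cdkn1a had Ndufa1 (0.996), Tsc22d1 (0.995) and Gstm5 (0.993) nearest and Ipo5 (-0.995), Nhp2 (-0.993) and the cap-binding translation factor gene Eif4e (-0.990) opposite. Cdkn1c was nearest to Foxp1 (0.984), Nrp1 (0.968) and Nudt4 (0.963), and Porcn (-0.975), Mknk2 (-0.968) and the immediate early gene Fos (-0.962) ran against it. Foxp1 had log2 changes of -0.40, -1.14 and -0.74 in TF groups 1, 2 and 3, and Porcn, which acylates Wnt proteins, of 0.85, 2.03 and 1.27. Cdkn2c was nearest to Plpp3 (0.976), Gpsm2 (0.975) and Col6a2 (0.975) and opposite to Wfs1 (-0.983), Grk5 (-0.982) and Mark1 (-0.976). Cdkn2d was nearest to the cohesin gene Smc1a (0.990), Fhl3 (0.983) and Tspan4 (0.983) and opposite to Prepl (-0.991), Dab2 (-0.987) and the neurofilament gene Nefm (-0.983).

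Between members, over the same 12 arrays, the genes that rose ran together (Cdkn1a with Cdkn2a 0.966, Cdkn1a with Cdkn2b 0.953 and Cdkn2a with Cdkn2b 0.980), and so did Cdkn1c with Cdkn2c (0.895), Cdkn1c with Cdkn2d (0.901) and Cdkn2c with Cdkn2d (0.945). Each gene of the first set had a negative r with each gene of the other (-0.622 to -0.891).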

How the data were processed

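The 12 arrays (4 groups of 3 arrays) hold 1 value per probe set. These deposited values are linear intensity, with the same trimmed mean on every array. The authors' methods and their notes in the labels name RMA and Partek, no version given, but RMA yields log2 values, so how the intensity was summarised is not known. The planned tests had assumed log2 of the deposited signal, and that is what was used, with no further scaling. The 64 control probe sets stayed out of the tests. Of the 22626 others, 20380 had 1 symbol, 691 several and 1555 none.

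In R 4.3.3, limma 3.58.1 fitted a mean for each group to all 12 arrays, without covariates, and the Benjamini-Hochberg adjustment ran over all probe sets of a comparison. All probe sets of the 7 members are named. From each list up to 4 called genes per direction, by mean absolute change, could be named, a gene being represented by its brightest probe set. Other list genes are named for context, chosen after their values were seen. Members and lists were chosen with earlier results of these data known. The number of arrays limits precision. Steps were tested on simulated data. Alternatives were other scalings, limma settings, thresholds, a replicate block, an offset of 50 and each array left out in turn.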

Additional observations from a re-analysis of the deposited data

Results flagged for a closer look

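Effects of the TF groups on the same gene, each against the negative control, differed between TF groups by more than 1.5-fold, with an adjusted p under 0.05, for 2 members. Cdkn1c differed by -1.27 on the log2 scale between TF group 2 and TF group 1 and by 0.76 between TF group 3 and TF group 2. Cdkn2c differed by -0.77 between TF group 2 and TF group 1 and by -0.66 between TF group 3 and TF group 1. Each was a contrast of the limma model. Under that fold, differences with an adjusted p under 0.05 were also seen for Cdkn2d between TF groups 2 and 1 (-0.30), Cdkn2b between TF groups 3 and 2 (-0.29) and Cdkn1a (1424638_at) between TF groups 3 and 1 (-0.22).

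Control probe sets that enter no comparison differed between the groups. The poly-A spikes were 0.81 higher (log2) on TF arrays than on negative control arrays, and the probe sets for 18S ribosomal RNA 1.19 higher. The hybridization spikes differed by 0.24.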

How the results depend on the processing

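Of 31 results on single probe sets, 31 kept their direction and their side of the thresholds with a replicate block, an intensity trend, array weights, an unmoderated linear model, the unadjusted p of the methods or without dim probe sets, and 30 with quantile normalization. With the poly-A scaling 10 of 31 did, and the probe sets called higher versus the negative control numbered 1, 1 and 1 in TF groups 1, 2 and 3 in place of 4 each, and those called lower 5, 5 and 5 in place of 1, 3 and 2. Between TF groups that scaling left 1 lower (TF group 2 versus 1), 0 higher (TF group 3 versus 2) and 0 lower (TF group 3 versus 1), in place of 2, 1 and 1. Over all probe sets it gave 554 higher and 12331 lower in TF group 1 (3088 and 2049 as deposited), 820 and 9996 in TF group 2 (3111 and 2258) and 708 and 10731 in TF group 3 (3078 and 2117). Centring on the median gave 4 lower in TF group 3. The probe sets called lower in TF group 1, and those called higher in TF group 3 versus 2, numbered 0 with only the 2 groups compared, with an offset of 50, at an adjusted p of 0.01 and at a fold of 2. A fold of 2 also left 2 called higher in TF group 2, 1 higher and 1 lower in TF group 3, 1 lower in TF group 2 versus 1 and 0 lower in TF group 3 versus 1. Leaving out 1 array at a time gave 0 to 1 lower in TF group 1 and 0 to 1 higher in TF group 3 versus 2, and for Cdkn1b (1419497_at) in TF group 1, which had no call, a log2 change of -0.22 to 0.027. The causes were not tested.

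The replicate block changed no call of a member (for Cdkn2a in TF group 1 the log2 change was 2.93 with the block). Replicate numbers did not pair the arrays: deviations of same-numbered arrays correlated at -0.07 to 0.12, above 0.1 in 2 of 18 pairs, and 6 of 12 arrays were closest to their own number. Taking the mean of all probe sets of a gene gave 13, 13 and 11 genes of the p53 list called higher, in place of 12, 12 and 11. By Spearman's rho the genes named nearest to the members had values of 0.75 to 0.99.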

Other observations

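Genes tied to senescent cells, in which Cdkn1a and Cdkn2a are commonly high, did not move one way. In TF groups 1, 2 and 3, 3, 2 and 2 of 11 measured were called higher and 5, 6 and 7 called lower. The shares of all probe sets were 13.6%, 13.7% and 13.6% higher and 9.06%, 9.98% and 9.36% lower. Glb1, the lysosomal beta-galactosidase, rose by 1.00, 1.01 and 1.07 on the log2 scale and Igfbp3, a secreted binding protein, by 1.66, 1.19 and 0.91. Lmnb1, the lamin gene that is low in senescent cells, fell (-1.62, -1.86 and -1.83). The secreted factor genes Il6 (-1.12, -1.47 and -0.86), Ccl2 (-1.93, -2.17 and -1.90) and Mmp3 (-1.84, -2.43 and -2.42) fell. Scaled to the poly-A spikes, 7, 8 and 8 were called lower and 1, 0 and 0 higher, beside 12331, 9996 and 10731 of all 22626 probe sets called lower.

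Of 10 imprinted growth regulators outside the Cdkn1c and Igf2 domains, 4, 2 and 3 were called higher and 1, 1 and 3 lower, and after the spike scaling 1, 2 and 1 higher and 4, 6 and 5 lower. As deposited, 13.6%, 13.7% and 13.6% of all probe sets were called higher and 9.06%, 9.98% and 9.36% lower. After the spike scaling 554, 820 and 708 of all 22626 were called higher and 12331, 9996 and 10731 lower. Igf2r, the receptor that clears Igf2, rose by 1.56, 1.34 and 1.33. Dlk1 fell (-0.90, -2.10 and -2.12). Mest differed by -1.51 between TF groups 2 and 1 (limma, adjusted p = 0.000129) and by 1.22 between TF groups 3 and 2 (adjusted p = 0.000401).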
